A study of Mus musculus with 44 samples.

Results

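The transcriptomes of liver and skeletal muscle were compared within the same 11 wild-type (WT) mice. The comparison used 22 of the 44 libraries of the series, 11 of liver and 11 of muscle, and each liver was paired with the muscle that carried the same animal number. All mice were male WT littermates of an Slc16a13 knockout line on a C57BL/6N background, were 20 weeks old and had received high-fat diet (HFD) for 15 weeks before they were killed after an overnight fast. Both tissues therefore describe fasted, diet-fed animals, and no library came from mice on normal chow. The muscle that was sampled is given only as skeletal muscle. Libraries of knockout (KO) mice did not enter any fit.

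Liver and skeletal muscle divide the work of fuel metabolism. Hepatocytes secrete plasma proteins and lipoproteins, make bile acids, urea, glucose and ketone bodies, and detoxify foreign compounds. Muscle fibres are packed with sarcomeres and calcium-handling membranes, buffer ATP through creatine phosphate, and burn glucose and fat for contraction. Many steps that both tissues need are run by different members of a gene family, such as the glucose transporters Slc2a2 in liver and Slc2a4 in muscle.

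Levels are given in TPM (transcripts per unit of library, scaled to the same sum in each library), which are per length of the gene and were obtained from the deposited RPKM values, so that genes can be set side by side. TPM and the fold changes are scaled between libraries in different ways, so where a difference is small their directions can differ. Differences are log2 fold changes of liver over muscle, so that a positive value means more in liver. They come from a model of the read counts that holds the mouse constant, and are given with their standard error (SE). Where a gene had few reads in one tissue, this SE understates the counting error. Mup20, with 1 read in all muscle libraries together, had a log2 fold change of 17.43 with an SE of 0.16. The exact interval for counting error of its ratio of read shares ran from 75400 to 16600000. A gene was called at an adjusted p under 0.05, and called over 2-fold where the change was also tested against a log2 fold change of 1. In pieces of whole tissue, fewer cells of a type and less RNA per cell cannot be told apart.

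The libraries held 20150712 to 33733103 reads on genes in liver (median 24538782) and 21810239 to 33807727 in muscle (median 25208479). The tissue labels held in every library. The 8 hepatocyte markers summed to 84202.6 to 111848.3 TPM in liver and to 4.3 to 14.2 TPM in muscle, and the 8 myofibre markers to 136615.3 to 183157.8 TPM in muscle and to 4.3 to 53.5 TPM in liver. The share of reads on myofibre markers in liver was 0.00155 to 0.034% of their median share in muscle, and the highest came from the liver of mouse 516. The share on hepatocyte markers in muscle was 0.00408 to 0.0137% of that in liver, while albumin alone was highest in the muscle of mouse 616, with 109 reads. Both libraries stay in the fits, and the size of the largest differences is given without them below. The genotype labels were checked on the deleted gene. Slc16a13 had 99 to 302 reads in WT liver and 0 to 8 in KO liver. In muscle it had 4 to 22 reads in the libraries labelled WT and 11 to 40 in those labelled KO, so the gene was not lower in the muscle libraries labelled KO, and the genotype of the muscle libraries is taken from the labels alone. The libraries were sequenced in pools of 11 whose members are not given in the sources used here, so that a pool and a tissue cannot be told apart.

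Most of the genes that were expressed differed between the tissues. Of 13907 genes tested, 6329 were higher in liver (45.5%), 6345 were higher in muscle (45.6%) and 1233 were not called. Over 2-fold differences were called for 3706 genes higher in liver (26.6%) and 3408 higher in muscle (24.5%). For 9863 genes (70.9%) the 11 liver and the 11 muscle libraries did not overlap. The median absolute log2 fold change was 1.17. A fitted difference over 10-fold was seen for 1539 genes higher in liver and 1297 higher in muscle, and over 100-fold for 708 and 562 genes. Of the called genes, 11065 (87.3%) had the same sign in all 11 mice, a share that the call itself favours. Over all tested genes, the median SD of the log2 ratio over mice was 0.23. Among the tested genes, 154 had no read in any muscle library and 116 had none in any liver library.

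**Figure D1:**
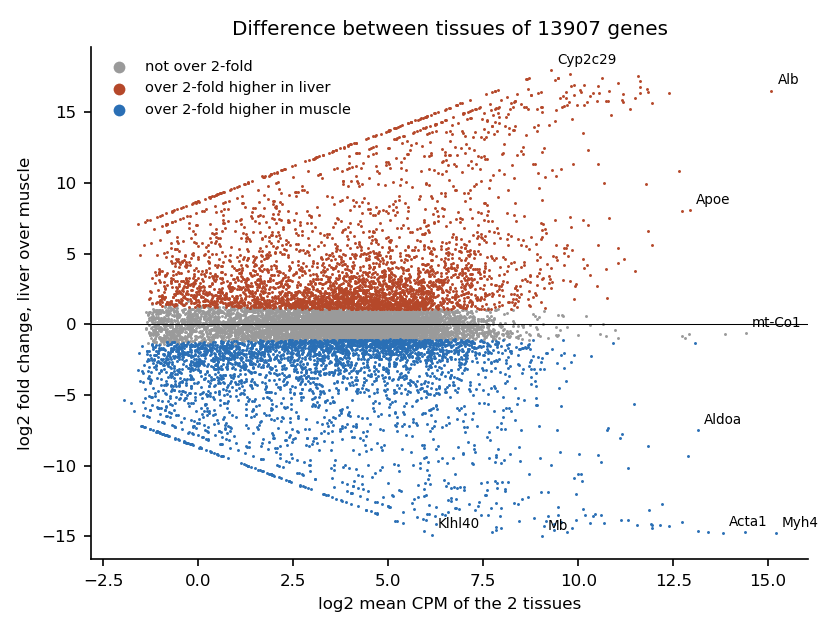
Log2 fold change of liver over muscle (vertical axis) against the log2 of the mean CPM (reads scaled to library size) of both tissues (horizontal axis) for 13907 genes. Red points are genes called over 2-fold higher in liver, blue points over 2-fold higher in muscle and grey points all others. The straight edges are genes with 0 reads or hardly any in one tissue, whose fitted change follows from their level in the other.

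Muscle put far more of its reads on few genes. The 10 most abundant genes of a library took 16.03 to 18.51% of reads in liver (median 17.11%) and 26.67 to 30.04% in muscle (median 28.62%). The ranges did not overlap, and the share was lower in liver in all 11 mice, with a mean difference of -10.87 percentage points (SD 1.148, p = 0.00098 in an exact two-sided sign-flip permutation test over mice, the smallest p that 11 mice allow). It took 155 to 190 genes to reach 50% of reads in liver and 52 to 74 in muscle. At a depth of 20150712 reads, which all libraries were thinned to, 12509 to 13108 genes had 10 reads or more in liver (median 12789) and 12603 to 13174 in muscle (median 12967). This difference was small, a mean of -117.8 genes for liver minus muscle (SD 149.7, exact sign-flip permutation p = 0.032, but 0.12 without pairing), and its direction depended on the level asked for: with 100 reads or more, liver had a mean of 247.9 genes more (SD 145.6, higher in 11 of 11 mice, exact permutation p = 0.00098).

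**Figure D2:**
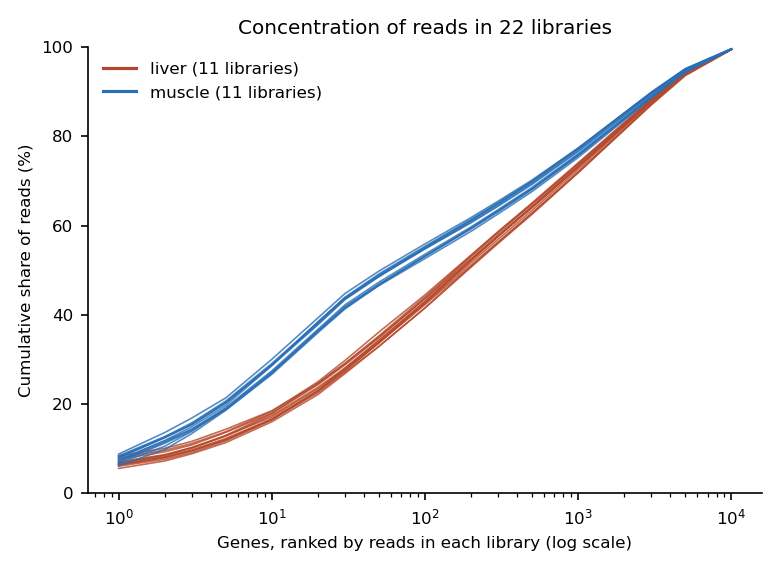
Cumulative share of reads (%, vertical axis) on genes ranked by their reads in each library (horizontal axis, log scale). Each line is a library, red for liver and blue for muscle. The muscle lines run above the liver lines between 10 and 500 genes, and 52 to 74 genes hold 50% of muscle reads against 155 to 190 genes in liver.

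The most abundant transcript of liver was albumin (Alb), the main carrier protein of plasma. It reached 46800 to 71300 TPM in liver (median 56300) and 0.197 to 3.97 TPM in muscle (median 0.397), and took 5.59 to 8.41% of liver reads. The groups were far apart, with a log2 fold change of 16.53 (SE 0.52, adjusted p = 2.9e-14). Apoe, a ligand of lipoprotein receptors, followed with 24100 to 35300 TPM in liver. Muscle also expressed it at a moderate level, 68.2 to 177 TPM (median 126), and the log2 fold change of 8.09 (SE 0.17) was among the smaller ones of the leading secreted proteins. Apoa2, a protein of high-density lipoprotein, reached 27000 to 30900 TPM in liver and 0.167 to 2.54 TPM in muscle. The other leading nuclear genes of liver were Cyp2e1, an ethanol-oxidizing cytochrome P450 (median 11900 TPM), Apoc1 (11700 TPM), the protease inhibitor Serpina3k (11600 TPM), transferrin (Trf, 11200 TPM) and Apoa1 (10100 TPM). All were over 2-fold higher in liver, by log2 8.05 for Trf to 16.36 for Serpina3k.

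In muscle the leading nuclear genes encoded the fast contractile apparatus and its energy supply. Skeletal alpha-actin (Acta1) reached 34800 to 43300 TPM in muscle (median 37500) and 0.505 to 11.4 TPM in liver (median 0.913), a log2 fold change of -14.73 (SE 0.49, adjusted p = 6.1e-14). Fast troponin T (Tnnt3) followed with a median of 37000 TPM, the sarcoplasmic reticulum calcium pump Atp2a1 with 30800 TPM, the fast regulatory myosin light chain Mylpf with 29700 TPM and muscle creatine kinase (Ckm) with 27300 TPM. Their log2 fold changes lay between -14.69 (Atp2a1) and -13.13 (Mylpf), and their liver values did not come near those of muscle. Counted in reads and not per length, the leading gene of muscle was the long myosin heavy chain gene Myh4, with 6.19 to 8.8% of reads. Aldolase A (Aldoa) and tropomyosin 1 (Tpm1) completed the group, and these were also expressed in liver, at medians of 123 and 25.2 TPM. Of the 10 leading genes of liver and of muscle, mt-Co1 and mt-Cytb stood in both sets.

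The promoters of Alb and Acta1 are shown because these were the most abundant nuclear transcripts of either tissue. Both run from 250 bases before to 50 bases after the RefSeq start in build GRCm38.p6, 5′ to 3′ on the strand of the gene, Alb at chr5:90460620-90460919 on the plus strand and Acta1 at chr8:123894726-123895025 on the minus strand. Capitals mark, in Alb, the HNF1 core GTTAAT and, in Acta1, the E-box CAGCTG, the CArG box, the MCAT element CATTCC and TATAAA, in this order.
Alb: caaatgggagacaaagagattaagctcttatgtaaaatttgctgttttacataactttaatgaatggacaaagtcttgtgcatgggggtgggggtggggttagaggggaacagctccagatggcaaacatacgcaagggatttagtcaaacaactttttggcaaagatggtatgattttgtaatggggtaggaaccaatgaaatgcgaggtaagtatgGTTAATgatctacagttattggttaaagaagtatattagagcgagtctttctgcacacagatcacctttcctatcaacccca
Acta1: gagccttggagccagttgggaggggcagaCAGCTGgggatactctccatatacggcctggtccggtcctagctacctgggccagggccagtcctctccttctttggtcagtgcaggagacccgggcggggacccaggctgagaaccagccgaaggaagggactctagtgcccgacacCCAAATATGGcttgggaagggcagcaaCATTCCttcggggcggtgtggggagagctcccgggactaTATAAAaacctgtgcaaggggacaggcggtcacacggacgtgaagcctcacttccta

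The same letters were counted on both strands of the 300-base promoters of all genes over 2-fold higher in one tissue with a mean of 100 TPM or more there. For each gene the first promoter listed was counted, and those of a single chromosome were left out. This gave 797 genes for liver, of which 629 had a promoter to count, and 513 for muscle, of which 408 had one. GTTAAT, the core of the site of the hepatocyte factor HNF1, stood in 11.4% of the liver promoters, 3.43% of the muscle promoters, 7.2% of all 27025 promoters and 4.5% of the 10604 promoters of tested genes. CAAAGTCCA, a core of the HNF4 site, stood in 1.75, 0.245 and 0.477%, and in 0.462% of those of tested genes. The E-box CAGCTG, bound by MyoD, stood in 14.3% of the liver promoters, 21.6% of the muscle promoters, 16.1% of all and 15.2% of those of tested genes. The MEF2 site stood in 0.159% of liver promoters (1 gene), 2.7% of muscle promoters (11 genes), 0.566% of all and 0.547% of those of tested genes, and the CArG box in 2.38, 3.43, 1.57 and 1.28%. In the same order of liver, muscle and all promoters, with the promoters of tested genes last, the shares were 15.6, 16.2, 14.6 and 12.3% for CATTCC, 13.7, 12.3, 14.2 and 7.83% for TATAAA, and 68.5, 65.7, 72.1 and 63.7% for the general E-box CANNTG, which includes CAGCTG. TTGCGNAA of C/EBP stood in 1.11% of the liver promoters (7 genes), 0.49% of the muscle promoters (2 genes), 0.807% of all and 1.24% of those of tested genes. These shares are a description of letters and were not tested.

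The largest fold changes were those of liver enzymes and secreted proteins with almost no read in muscle. Cyp2c29, a drug-metabolizing cytochrome P450, had 16876 to 42403 reads in each liver library and 0 in all muscle libraries, which makes it at least 117200-fold higher in liver against a floor of 3 reads over the 11 libraries. On the same floor, Cyp2c50 was at least 80350-fold higher, Ugt1a1, which conjugates bilirubin, at least 77330-fold higher and Dmgdh of choline breakdown at least 75570-fold higher. Pigr, Mup20, Rdh7 and Hrg each had a single read in all muscle libraries together. Their ratios of read shares were 509000, 420000, 407000 and 384000, with exact 95% intervals for counting error that start at 91400, 75400, 73000 and 69000. Mat1a, the methionine adenosyltransferase of hepatocytes, had 1668579 reads in liver and 8 in muscle, and Serpina1c had 867748 and 4. Mup20, Serpina1c and the Cyp2c genes belong to families of near-identical copies, whose reads the counting could split or drop.

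In muscle the largest changes were those of myoglobin and sarcomere genes. The oxygen store myoglobin (Mb) had 559 to 4280 TPM in muscle (median 1660) and at most 0.305 TPM in liver, a log2 fold change of -14.96 (SE 0.22). Klhl40, which stabilizes thin filament proteins, had 42449 reads in muscle and 0 in liver, at least 13420-fold higher in muscle. Dhrs7c, a dehydrogenase of the sarcoplasmic reticulum, had 35840 and 0 reads, at least 11330-fold higher. Trim54, a ubiquitin ligase of the sarcomere, had 125355 reads in muscle and 3 in liver, a ratio of 39600 (exact 95% interval 13600 to 192000). The size of these changes depended on single libraries. Without mouse 516 the fold of Mb rose from 31800 to 54400 and that of the Z-disc protein Tcap from 26200 to 65500. Without mouse 616 the fold of Mat1a rose from 190000 to 308000 and that of Apoa1 from 83300 to 139000. Directions and calls of these genes stayed the same.

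The secretory program of the liver was higher in liver as a whole. All 18 plasma carrier proteins, 17 of 17 genes of apolipoproteins and lipoprotein assembly, 19 of 19 coagulation factors and 21 of 21 complement components were over 2-fold higher in liver, where 26.6% of all tested genes were. None of these genes overlapped between tissues, as 70.9% of all genes did not. The median log2 fold change was 15.28 for coagulation factors and 14.35 for carriers but 7.18 for complement. Among carriers, Gc, which binds vitamin D, had 5630 to 6240 TPM in liver and at most 0.452 TPM in muscle (log2 16.81, SE 0.35), and fetuin A (Ahsg) 6960 to 10000 TPM and at most 0.556 TPM (log2 16.68, SE 0.34). The fibrinogen chains Fga and Fgg were at 2050 to 3590 and 2600 to 4340 TPM in liver, with 8 and 6 reads in muscle. Coagulation factor XII (F12) had 0 reads in muscle and was at least 42870-fold higher in liver. For complement, the mannose-binding lectins Mbl2 and Mbl1 had 0 reads in muscle, at least 27590-fold and 17310-fold higher in liver. In apolipoproteins, Apoa4 varied most between mice, from 757 to 3840 TPM in liver, and Apob lay between 1870 and 2310 TPM.

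Nitrogen, amino acid, bile acid and drug metabolism showed the same pattern. All 8 urea cycle genes, 20 of 20 genes of amino acid breakdown, 13 of 13 of bile acid synthesis and transport and 15 of 15 cytochrome P450 genes were over 2-fold higher in liver. That call was made for 26.6% of all genes. Cps1, the entry enzyme of the urea cycle, had 680 to 1140 TPM in liver and at most 0.0903 TPM in muscle (log2 16.35, SE 0.30), while its partners Arg1 and Otc were at medians of 1270 and 337 TPM in liver. Of the amino acid enzymes, Bhmt (betaine to methionine) had a median of 2600 TPM in liver, and Hpd (tyrosine) 2880 TPM, with 10 and 6 reads in muscle. The hepatic uptake carrier Slco1b2 had 516771 reads in liver and 3 in muscle, the bile salt export pump Abcb11 131993 and 2. Slco1a1 had 0 reads in muscle and ranged from 29.2 to 239 TPM between livers. Cyp3a25 and Cyp2a5 had 0 reads in muscle, at least 45970-fold and 42870-fold higher in liver.

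Genes of gluconeogenesis were mostly higher in liver. Of 6 genes, 5 were higher in liver and 1 was higher in muscle, against 45.5 and 45.6% of all genes. Over 2-fold calls were made for 4 of them, all in liver, against 26.6% of all genes, and the median log2 fold change was 5.21. G6pc, the enzyme that releases free glucose, had 69.6 to 625 TPM in liver (median 224) and 4 reads in muscle. Its log2 fold change was 14.44 (SE 0.15, which understates the counting error of so few reads). Cytosolic Pck1 had 770 to 2530 TPM in liver and 3.37 to 29.1 TPM in muscle (log2 7.03, SE 0.40, adjusted p = 5.8e-11). The mitochondrial form Pck2 went the other way at a low level, 0.789 to 1.75 TPM in liver and 1.29 to 2.49 TPM in muscle (log2 -0.56, SE 0.11, adjusted p = 0.00019), and its ranges overlapped.

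Most genes of the fat metabolism lists were higher in liver, where 45.5% of all genes were, and 26.6% over 2-fold. All 7 peroxisomal oxidation genes were over 2-fold higher in liver (median log2 4.33), with Acaa1b at 1290 to 1740 TPM in liver and 0.448 to 2.46 TPM in muscle. Of 16 genes of mitochondrial fatty acid oxidation, 14 were higher in liver, 11 of them over 2-fold, and the median was only 1.35. Acaa2, the last thiolase of the spiral, had 1200 to 1390 TPM in liver and 110 to 302 TPM in muscle (7.98-fold, SE of the log2 value 0.11). Acadl, the long-chain dehydrogenase (256 to 313 TPM in liver, 266 to 481 TPM in muscle, adjusted p = 0.15, but log2 -0.51 and called where each library's dependence on gene length was removed), and the trifunctional protein subunit Hadhb (356 to 464 and 305 to 636 TPM, adjusted p = 0.57) were not called. Cholesterol synthesis and uptake had 18 of 19 genes higher in liver, 15 of them over 2-fold, with a median of 2.85, and Fdft1, squalene synthase, was not called (log2 -0.17, SE 0.15). Of 12 lipogenic genes, 10 were higher in liver, with Elovl5, Elovl6 and Dgat2 leading at log2 6.01, 5.79 and 4.37. Malic enzyme Me1 was higher in muscle (40.2 to 82 TPM in liver, 111 to 158 TPM in muscle, log2 -1.16, SE 0.09), and so was Gpam, by log2 -0.26 (SE 0.06), a call that was lost where gene length was removed (log2 -0.01).

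Ketone bodies are made in liver and burnt elsewhere, and the genes of their use differed in direction. Oxct1, which activates acetoacetate for burning, had 1.99 to 3.83 TPM in liver and 193 to 299 TPM in muscle (log2 -6.24, SE 0.09, adjusted p = 2.7e-18). Bdh1 and Acat1, which also serve synthesis, were higher in liver, by log2 6.14 (SE 0.41) and 2.06 (SE 0.07), and Bdh1 ranged widely between muscles, from 0.473 to 26.2 TPM.

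Mitochondrial energy genes were higher in muscle, mostly by less than 2-fold. Of 18 tricarboxylic acid cycle genes, 13 were higher in muscle, 7 of them over 2-fold, against 45.6 and 24.5% of all genes, and 2 were higher in liver. Idh3a had 19.5 to 27.1 TPM in liver and 394 to 458 TPM in muscle (adjusted p = 4.3e-18), and citrate synthase (Cs) was at log2 -2.35. Suclg2, the GTP-forming subunit of succinyl-CoA ligase, was higher in liver (154 to 218 and 27.3 to 37.2 TPM, log2 2.66, SE 0.06). Of 77 nuclear subunits of the respiratory chain tested, 71 were higher in muscle, but the median log2 fold change was only -0.65 and 16 were over 2-fold higher in muscle. The subunits with the largest differences in both directions were tissue isoforms of cytochrome c oxidase, Cox6a2, Cox8b and Cox7a1 in muscle and Cox6a1 and Cox8a in liver. The 4 subunits higher in liver were Cox6a1, Cox8a, Cox7a2 and Sdhd, and the call of Sdhd (log2 0.29) was lost where gene length was removed (log2 -0.03).

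The mitochondrially encoded respiratory chain genes took 4.768 to 5.456% of reads in liver (median 4.898%) and 6.728 to 12% in muscle (median 8.295%). The ranges did not overlap, and the mean of liver minus muscle was -3.913 percentage points (SD 1.537, lower in 11 of 11 mice, exact sign-flip permutation p = 0.00098). All mt- genes together took 4.879 to 5.57% in liver and 6.848 to 12.29% in muscle. All 7 of the respiratory chain genes that could be tested were higher in muscle, against 45.6% of all genes. They ran from log2 -0.65 for mt-Co1 to -1.35 for mt-Nd1, the one that passed 2-fold. mt-Nd1 had 7450 to 10100 TPM in liver and 19800 to 32700 TPM in muscle. The other 6 protein genes, mt-Atp6, mt-Atp8, mt-Co2, mt-Co3, mt-Nd3 and mt-Nd4l, were listed at 0 reads in every library of both tissues, and the share therefore covers only part of the mitochondrial genome.

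The contractile and membrane systems of muscle were far higher in muscle, most of them with hardly any read in liver. All 11 thick filament genes tested, 12 of 14 thin filament genes, 12 of 13 Z-disc genes, 17 of 17 genes of excitation and calcium release, 7 of 7 of energy buffering and oxygen storage, 8 of 9 of the neuromuscular junction and 11 of 11 of the dystrophin complex and membrane repair were higher in muscle, against 45.6% of all genes. Median log2 fold changes were -14.04 for the thick filament, -13.06 for the Z-disc and -12.71 for calcium release, but -8.75 for the neuromuscular junction and -6.02 for the dystrophin complex. Myh4, the IIb myosin heavy chain, had 19100 to 28200 TPM in muscle and 0.231 to 7.9 TPM in liver (log2 -14.79, SE 0.58). Parvalbumin (Pvalb), the calcium buffer of fast fibres, had 13500 to 21500 TPM in muscle and 0.213 to 6.66 TPM in liver. Alpha-actinin 3 (Actn3) of the Z-disc had 6080 to 9630 TPM and at most 3.02 TPM, and Sgca of the sarcoglycan complex 304 to 411 TPM and at most 0.239 TPM. Members that went the other way are expressed in many cell types. Tpm3, a tropomyosin of slow fibres and of non-muscle cells, was higher in liver (48.2 to 63 TPM in liver, 12.5 to 64.4 TPM in muscle, log2 1.76, SE 0.13), and so was the agrin receptor Lrp4 (5.48 to 8.71 and 1.11 to 1.99 TPM, log2 2.34, SE 0.07). Csrp3, a Z-disc protein, was not called (55.4 to 88.6 TPM in liver, 8.62 to 715 TPM in muscle, adjusted p = 0.56), nor was slow troponin T, Tnnt1 (adjusted p = 0.088), and both were called when the mouse was not held constant, that is, without the replicate block (log2 -1.11 and -1.81). Tnnt1 was also called with limma-voom (-1.44), where gene length was removed (-0.97) and without mouse 528 (-1.02). The slow troponin C, Tnnc1, was called higher in muscle (log2 -1.17), but not without mouse 531 (log2 -0.60), with DESeq2 (-0.85) or on log2 RPKM with either pseudocount (-0.76 and -0.55).

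The muscle libraries were those of a fast muscle, and they differed in their slow genes. Of the TPM on the 4 adult myosin heavy chains, Myh4 (IIb) held 87.4 to 98.3% (median 96.4%), Myh1 (IIx) 1.63 to 11% (median 3.17%), Myh2 (IIa) 0.034 to 2.03% and Myh7 (slow) 0 to 0.103%. The muscle of mouse 531 stood apart. It had 23.6 TPM of Myh7 where the next highest library had 0.719, 101 TPM of Myl2 against 8.34, 163 TPM of Myl3 against 6.04 and 27.5 TPM of Tnni1 against 2.53. Myh1 and Mb were highest in the muscle of mouse 624, with 2400 and 4280 TPM. Myh7, Myl2, Myl3, Tnni1 and Myoz2 did not pass the filter on low counts. Whether the pieces of muscle came from the same place in each mouse is not given.

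The transcription factors that set each cell type were higher in their own tissue with 1 exception. All 23 liver factors were higher in liver, 22 of them over 2-fold, against 45.5 and 26.6% of all genes, with a median log2 fold change of 10.98. Hnf4a had 261 to 442 TPM in liver and a single read in all muscle libraries, a ratio of read shares of 235000 (exact 95% interval 42200 to 9300000). The pregnane X receptor Nr1i2 had 0 reads in muscle, at least 6983-fold higher in liver, and Creb3l3, a fasting-induced factor, had 297 to 397 TPM in liver and at most 0.289 TPM in muscle. The smallest difference was that of Cebpb, with 6.14 to 25.5 TPM in liver and 4.36 to 20.2 TPM in muscle (log2 0.69, SE 0.17), its ranges overlapped, and its call was lost where gene length was removed (log2 0.31). Of 18 muscle factors, 17 were over 2-fold higher in muscle, against 24.5% of all genes (median log2 -8.67). Tbx15 had 162 to 232 TPM in muscle and 7 reads in liver, and Myf6, the myogenic factor of adult fibres, 125 to 194 TPM and 3 reads (a ratio of 9170, exact 95% interval 3140 to 44500). The estrogen-related receptor Esrrg was not called (1.75 to 4.03 TPM in liver, 0.64 to 5.1 TPM in muscle, adjusted p = 0.88), except where gene length was removed (log2 0.47).

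Most secreted signals were higher in the tissue they are named for. All 15 hepatokines were over 2-fold higher in liver, against 26.6% of all genes. The iron hormone hepcidin (Hamp) ranged from 765 to 2830 TPM between livers and had a single read in muscle, and Lect2 had 169 to 287 TPM in liver. Of 9 myokines tested, 7 were higher in muscle, against 45.6% of all genes. Myostatin (Mstn), the inhibitor of muscle growth, had 25.4 to 48.7 TPM in muscle and 0 reads in liver, at least 4797-fold higher in muscle, and Ostn, with 6.09 to 10.5 TPM, was at least 553.1-fold higher. Fndc5, the precursor of irisin, had 12.7 to 41.7 TPM in muscle and 0.0934 to 0.507 TPM in liver. Bdnf was higher in liver (log2 0.97, SE 0.22, adjusted p = 0.00075) at under 1 TPM in both tissues, and Metrnl was not called. Il6 and Apln had too few reads to be tested.

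**Figure D3:**
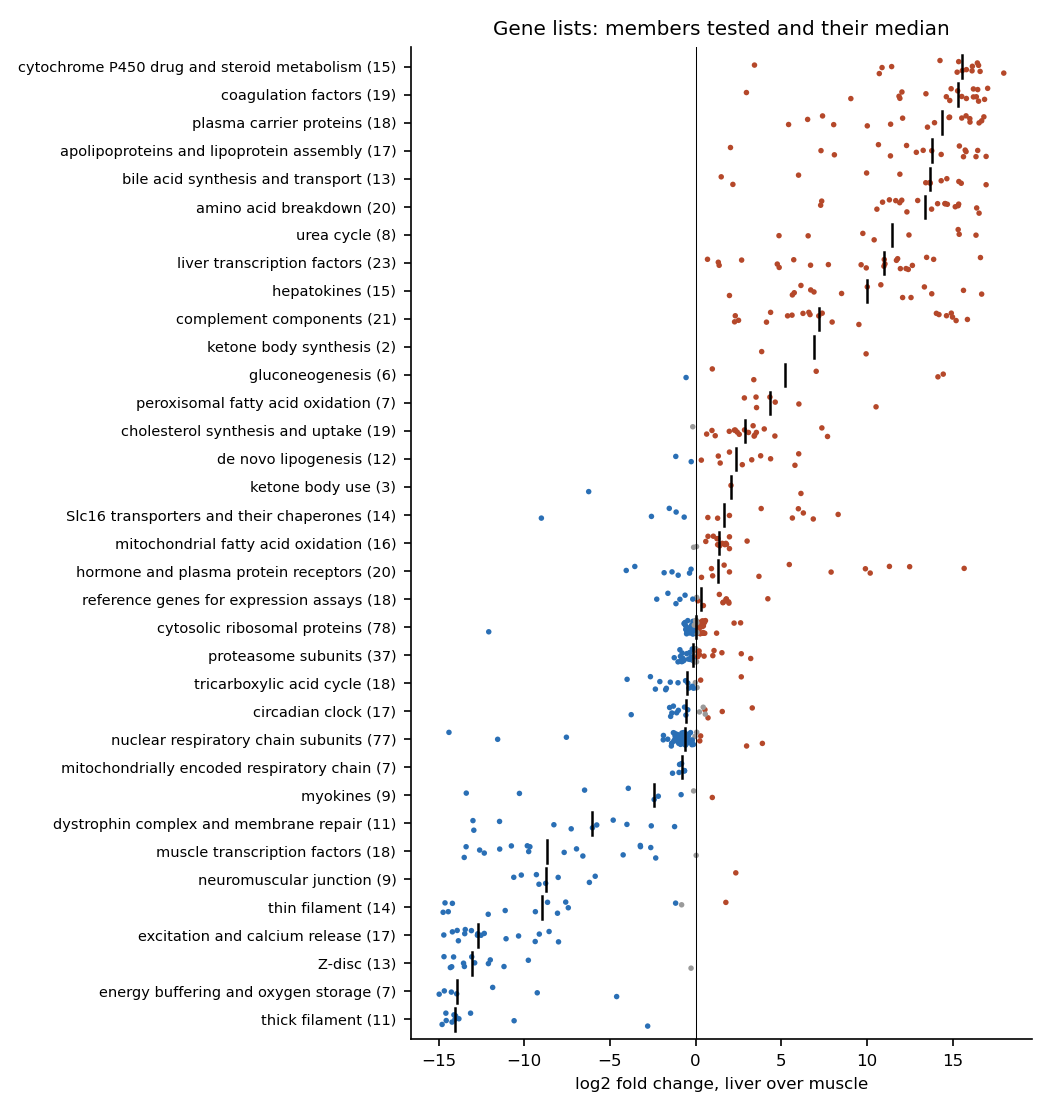
Log2 fold change of liver over muscle (horizontal axis) of the tested members of each gene list (rows, with the number of members tested), ordered by the median, which is the black bar. Points are genes, red where called higher in liver, blue where called higher in muscle and grey where not called. Lists of liver and of muscle functions lie at either end, and ribosome, proteasome and respiratory chain lie near 0.

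Related proteins that were listed as the liver form and the muscle form of the same reaction mostly changed places. The pairs were chosen with earlier results of these data known, so their counts describe these pairs and not shared reactions at large. Of 34 pairs of isoforms, 30 had the liver form over 2-fold higher in liver and the muscle form over 2-fold higher in muscle. Of all single genes, 26.6% were called over 2-fold higher in liver and 24.5% in muscle. In 32 pairs the form listed for liver was also the larger share of the TPM of the pair in all 11 livers and the smaller in all 11 muscles. The pair with the largest smaller fold was that of fatty acid binding proteins. Fabp1 had 7440 to 11000 TPM in liver and at most 1.48 TPM in muscle, and Fabp3 had 231 to 960 TPM in muscle and at most 0.359 TPM in liver (log2 15.77, SE 0.34, and -12.32, SE 0.19).

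Glucose handling exchanged its transporter and several enzymes. The transporter Slc2a2 had 169 to 238 TPM in liver and at most 0.046 TPM in muscle, and the insulin-regulated Slc2a4 had 329 to 392 TPM in muscle and 0.0312 to 0.447 TPM in liver. Fbp1 gave way to Fbp2 (median 1200 TPM in liver and 131 TPM in muscle). Pyruvate kinase changed from Pklr, with 91.3 to 293 TPM in liver and 0 reads in muscle (at least 23900-fold), to Pkm, with 2370 to 2880 TPM in muscle and 11.1 to 19.7 TPM in liver. The absolute level of the glycolytic forms differed as well, since Pfkm and Eno3 had medians of 3040 and 7700 TPM in muscle while Pfkl and Eno1 had 23.9 and 487 TPM in liver. In glycogen metabolism the synthases Gys2 and Gys1 (median 129 TPM in liver, 257 TPM in muscle), the phosphorylases Pygl and Pygm (284 and 7520 TPM) and the phosphatase targeting subunits Ppp1r3b and Ppp1r3a (163 and 110 TPM) changed places.

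The exchange extended to mitochondria and translation. Cpt1a, which admits long-chain fatty acids to mitochondria, had 255 to 346 TPM in liver and 5.77 to 8.76 TPM in muscle, and Cpt1b 4.18 to 9.44 and 299 to 425 TPM. In cytochrome c oxidase, Cox6a1 made up 100% of its pair in liver and 1.9 to 3.6% in muscle, and Cox8a 99.7 to 100% and 2.6 to 4.2%. The adenine nucleotide carrier changed from Slc25a5 to Slc25a4. Elongation factor 1 alpha changed from Eef1a1, with 4520 to 5650 TPM in liver, to Eef1a2, with 993 to 1160 TPM in muscle, where Eef1a1 still held 20.5 to 30.7% of the pair. Ribosomal protein L3 changed from Rpl3, with 137 to 168 TPM in liver and 28.7 to 42.1 TPM in muscle, to Rpl3l, with at most 0.213 TPM in liver and 501 to 577 TPM in muscle (log2 -12.07, SE 0.15).

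In 4 pairs the exchange was incomplete. Prkaa1 and Prkaa2, the catalytic subunits of the energy sensor AMPK, were both higher in muscle, by log2 -0.34 (SE 0.05) and -2.19 (SE 0.05), and Prkaa2 was the larger share in both tissues, 12.4 to 14.8 TPM in liver and 60.6 to 77.1 TPM in muscle. Prkaa1 was not called where gene length was removed (log2 0.05). Mat1a had hardly any read in muscle, while Mat2a had 55.1 to 76.4 TPM in liver and 64 to 84.7 TPM in muscle and was not called (log2 -0.05, SE 0.04). Prkab1 and Cox7a2 were higher in liver but not called over 2-fold (log2 1.01, SE 0.05, and 0.24, SE 0.05), while their partners Prkab2 and Cox7a1 were over 2-fold higher in muscle, and the call of Cox7a2 was lost where gene length was removed. Cox7a2 thus kept 187 to 263 TPM in muscle and 23.3 to 26% of its pair. The acetyl-CoA carboxylases went in opposite directions, but Acaca, listed as the liver form, held only 28 to 51.2% of the pair in liver, where Acacb had 4.99 to 14.1 TPM.

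**Figure D4:**
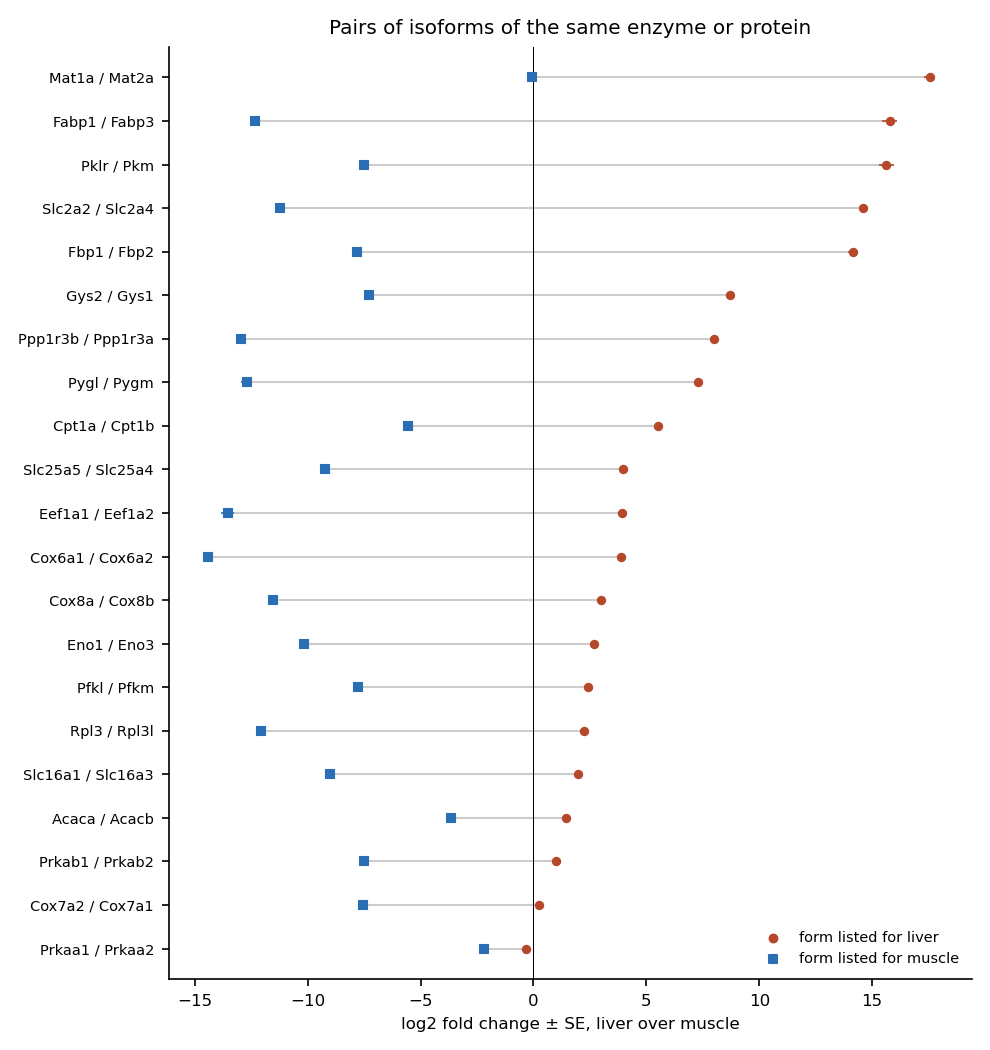
Log2 fold change of liver over muscle (horizontal axis) for the 21 pairs of isoforms named in the text, of 34 (rows). Red circles are the form listed for liver and blue squares the form listed for muscle, each with its SE, and grey lines join a pair. The SE understates the counting error of forms with few reads in one tissue. The red circle lies right of 0 and the blue square left of it with both called in 19 pairs, and the pairs Mat1a and Mat2a and Prkaa1 and Prkaa2 do not.

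The monocarboxylate transporter family, to which Slc16a13 belongs, had members that were higher in either tissue, as genes at large did. These carriers move lactate, pyruvate, ketone bodies or other small acids and, for some members, amino acids. Slc16a13 had 2.56 to 8.3 TPM in liver (median 4.5) and 0.128 to 0.768 TPM in muscle (median 0.493), a log2 fold change of 3.82 (SE 0.16, adjusted p = 1e-12), and its ranges did not overlap. Its level in liver was near that of Slc16a6 (2.28 to 7.25 TPM), and their ranges overlapped, while the medians of 7 other Slc16 genes were higher. Among the more abundant carriers there were Slc16a7 (46.2 to 82.4 TPM in liver, 0.034 to 0.539 TPM in muscle), the aromatic amino acid transporter Slc16a10 (28.2 to 42.5 and 12.1 to 19.1 TPM) and Slc16a1 (24.1 to 41.8 and 5.14 to 12.3 TPM). Slc16a12 (log2 5.99), Slc16a11 (5.64) and Slc16a5 (6.86) were higher in liver as well, and Slc16a6 was higher by less than 2-fold (log2 0.71, SE 0.15).

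The leading member in muscle was Slc16a3, the lactate exporter of glycolytic cells. It had 214 to 343 TPM in muscle and 0.234 to 0.863 TPM in liver, a log2 fold change of -9.00 (SE 0.15, adjusted p = 6.3e-18), and was the most abundant Slc16 gene of either tissue. Slc16a9 was higher in muscle (1.3 to 2.27 and 6.77 to 19.2 TPM, log2 -2.58, SE 0.13), and so was Slc16a4, at under 1 TPM in both. Basigin (Bsg), the chaperone that carries several of these transporters to the membrane, was abundant in both tissues and higher in muscle, with 376 to 507 TPM in liver and 633 to 828 TPM in muscle (log2 -0.67, SE 0.06), and the second chaperone Emb was low in both (median 0.415 and 1.17 TPM). In all, 9 of 14 genes tested were higher in liver and 5 in muscle, against 45.5 and 45.6% of all genes. Slc16a14 and Slc16a8 had too few reads to be tested.

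Most genes of the general cell machinery differed by little. Of 78 cytosolic ribosomal protein genes, 19 were not called, and the median log2 fold change was 0.03. In liver 31 were higher and in muscle 28, against 45.5 and 45.6% of all genes. These calls rest on small differences and on how length is treated, since 23 and 42 were called, with a median of -0.12, where each library's dependence on gene length was removed. Only 3 were over 2-fold higher in liver, Rps4l, Rpl3 and Rps27l, against 26.6% of all genes. Only Rpl3l was over 2-fold higher in muscle, against 24.5% of all genes. The TPM of the 81 listed genes, Rpl3l included, summed to 17077.9 to 19589 in liver and to 20100.5 to 22171.8 in muscle. Reads of ribosomal protein genes that match near-identical copies elsewhere could be split or dropped by the counting. Of 37 proteasome subunits, 10 were higher in liver and 20 higher in muscle (median log2 -0.15), against the same 45.5 and 45.6% of all genes. Where gene length was removed, 6 and 28 were called, with a median of -0.38. The TPM of the 39 listed subunits summed to 3785 to 4209.1 in liver and to 5337 to 6216.9 in muscle. The immunoproteasome subunits Psmb9, Psmb8 and Psmb10, which replace constitutive subunits in immune-activated cells, were higher in liver, by log2 3.21 (SE 0.06), 2.66 (SE 0.07) and 1.53 (SE 0.06), and the regulatory subunit Psmd7 was the one called over 2-fold higher in muscle (log2 -1.25, SE 0.05).

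Genes that serve as references in expression assays were called about as often as other genes. Of 18, 10 were higher in liver and 6 higher in muscle, against 45.5 and 45.6% of all genes, and 8 and 3 were over 2-fold higher, against 26.6 and 24.5%. B2m had 2630 to 3320 TPM in liver and 117 to 251 TPM in muscle (log2 4.21, SE 0.11). Gapdh had 554 to 941 TPM in liver and 3310 to 4000 TPM in muscle (log2 -2.27, SE 0.09). Ppia (log2 1.94), Gusb (1.92), Hprt (1.77), Ywhaz (1.61), Actb (1.59) and Ipo8 (1.38) were higher in liver, and Pgk1 (-1.15) in muscle. Smaller differences were those of Tfrc (-0.92), Rplp0 (-0.62), Rps18 (0.45), Polr2a (-0.17, but 0.50 where gene length was removed) and Rpl13a (0.13, not called where gene length was removed). Tbp had 8.82 to 13.5 TPM in liver and 9.97 to 14.8 TPM in muscle (log2 0.06, SE 0.07, adjusted p = 0.44) and Eef2 755 to 1050 and 896 to 1130 TPM (log2 0.06, SE 0.06, adjusted p = 0.37), and these were called only where gene length was removed (log2 -0.32 and 0.15).

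**Figure D5:**
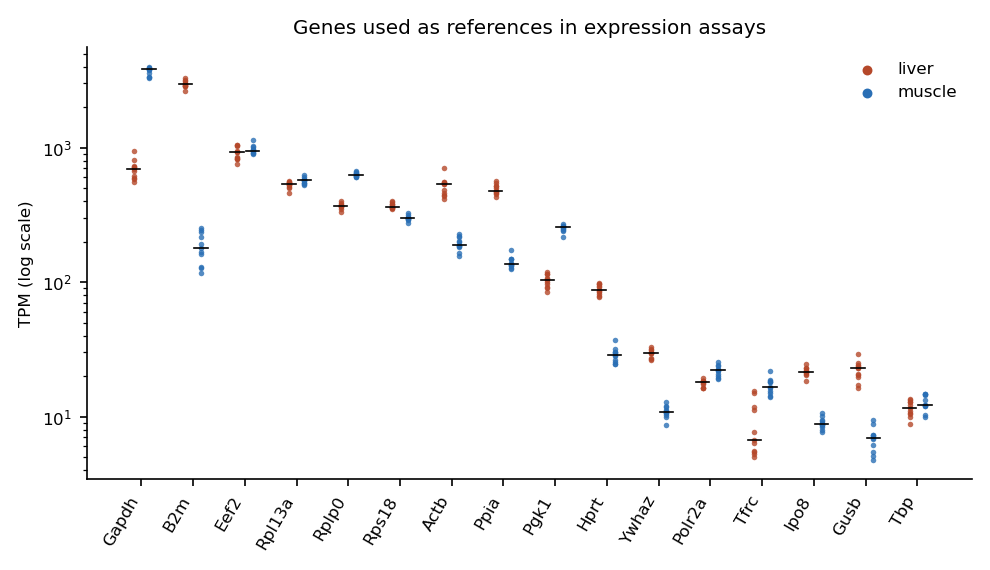
TPM (vertical axis, log scale) of 16 of the 18 genes in use as references, in each of the 11 liver (red) and 11 muscle (blue) libraries, with the median as a black bar. Gapdh and B2m lie far apart between tissues, and Eef2 and Tbp overlap.

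Genes of closely matched level could be named as well as those that differed. For 1476 genes (10.6%) the 95% interval of the mean log2 ratio over mice lay within 1.25-fold of equal levels, and 629 of these were still called. Of all genes, 26.6% were called over 2-fold higher in liver and 24.5% in muscle. Among the 431 genes with a mean of 100 CPM or more in both tissues, 126 were called over 2-fold different. The 5 genes of this group with the smallest change were Ppp2ca, the catalytic subunit of protein phosphatase 2A, Fam120a, Zcchc24, the nuclear pore protein Ranbp2 and the small GTPase Arf1. Ppp2ca had 30.7 to 37.4 TPM in liver and 33.1 to 40.8 TPM in muscle (log2 0.00, SE 0.03, SD over mice 0.07), and Arf1 166 to 195 and 191 to 211 TPM (log2 -0.01, SE 0.04). Where gene length was removed, all 5 were called, for example Ppp2ca (log2 0.71), Fam120a (0.47), Ranbp2 (0.93) and Arf1 (-0.40).

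The ratio of the tissues varied between mice in a few abundant genes. Lpin1, a phosphatidate phosphatase and transcriptional coactivator, ranged from 184 to 269 TPM in muscle but from 10.4 to 144 TPM in liver, where mice 536, 537 and 567 had 141, 144 and 114 TPM and the next highest 61.6 TPM. The same 3 livers were highest in Herpud1, a gene of the endoplasmic reticulum stress response, with 1660, 1560 and 1580 TPM where the liver median was 778 TPM. Its muscle values stayed within 162 to 197 TPM. For Slc25a25, a mitochondrial ATP-Mg carrier, the ratio changed sign between mice, since 9 of 11 had more in liver (49 to 350 TPM in liver, 13.7 to 283 TPM in muscle, log2 1.19, SE 0.40). Haptoglobin (Hp), an acute phase protein, was steady in liver (4480 to 7410 TPM) and ranged from 42.6 to 325 TPM in muscle.

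Markers of other cell types differed between the tissues too, as 45.5% of all genes were called higher in liver and 45.6% in muscle. The part of these markers in the results above was not tested. In liver, the 5 Kupffer cell markers summed to 219.5 to 296.9 TPM, against 0.3 to 1 TPM in muscle, and Clec4f had 0 reads in muscle. The 4 markers of sinusoidal endothelium found summed to 138 to 161 TPM in liver and 9.1 to 17.4 TPM in muscle, and the 5 of stellate cells to 206.5 to 308.7 and 19 to 39 TPM. In muscle, the 5 adipocyte markers summed to 97.4 to 365.4 TPM, against 2.6 to 16.9 TPM in liver, and leptin (Lep) had 12.2 to 93.6 TPM in muscle and 0 reads in liver. Fibroadipogenic progenitor markers (135.7 to 228.3 and 19.7 to 45.4 TPM), tenocyte markers (34.9 to 109.6 and 0.5 to 3.7 TPM) and Schwann cell markers (36.6 to 79 and 4.5 to 7.5 TPM) were also higher in muscle in 5 of 5 genes each. All 5 endothelial markers shared by both tissues were called, but none over 2-fold, against 26.6 and 24.5% of all genes. Pecam1, Cdh5, Tie1 and Emcn were higher in muscle by log2 0.75 to 1.07, and Kdr was higher in liver (log2 0.71, SE 0.11). Together the 5 summed to 50.8 to 58.9 TPM in liver and 80.1 to 131 TPM in muscle. Erythroid genes were higher in liver in 5 of 5 cases, Hbb-bs, which has near-identical copies, by log2 1.13 (SE 0.11) and Alas2 by 5.87 (SE 0.14). Macrophage markers (137.8 to 213.4 TPM in liver, 37.9 to 127.8 TPM in muscle) and 4 tested cholangiocyte markers (34.5 to 77.4 and 1.7 to 6.5 TPM) were higher in liver, 4 of 5 satellite cell markers were higher in muscle, and so were 4 of 4 tested smooth muscle markers, one of which, Des, is also made by myofibres. None of the 5 lymphocyte markers had enough reads to be tested.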

How the data were processed

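RNA-Seq was performed on poly(A)-selected RNA with a strand-marking kit (NEBNext Ultra II Directional). The authors deposited raw read counts per gene, not normalized, and a table of RPKM values that the authors calculated per kilobase and library size. The submitters' notes name limma. The aligner, the counting program, the use of strand and the genome build are not given in the sources used here. The tables cover 38202 genes, of which 36340 had a symbol in a table of identifiers. Dividing counts by RPKM gave a gene length that was not constant over libraries. Of values with 20 reads or more, 45.0% lay over 1% and 11.0% over 10% from the median of the gene. In 33 cases a count of 20 or more had an RPKM of 0. The TPM ranges given here rest on these RPKM values. TPM values were obtained by scaling each library's RPKM to one common sum.

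Counts of the 22 WT libraries were fitted in R 4.3.3 with edgeR 4.0.16 (filterByExpr, TMM, quasi-likelihood F-test, Benjamini-Hochberg adjustment over all 13907 genes, threshold 0.05), with the animal number as block. Adjusted p-values come from this test, and over 2-fold calls from glmTreat. The pairing comes from the animal numbers in the sample titles. The deviations of a liver and its own muscle from the tissue means correlated by 0.09 on average (-0.03 to 0.19), those of different mice by -0.01. Separate animals are given for the 11 libraries of a tissue, no pair held near-identical counts (lowest chi-square per gene 3.56), and p-values measure the spread over these mice. Totals of 20150712 to 33807727 reads set the precision, and intervals and floors (3 reads over a group) cover counting error only. Shares of reads were compared by sign-flip tests (2048 sign patterns) and, without pairing, with 100000 resamples. The procedure was tested on simulated counts. Plots were drawn with matplotlib 3.10.9, and counts were handled with pandas 2.3.3, numpy 2.4.6 and scipy 1.17.1 in Python 3.11.15.

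Genes were named by a rule: the 10 most abundant of each tissue, the 10 with the largest change in each direction at a mean of 100 TPM or more, pairs of isoforms, the 3 members of each list with the largest change and those called against it, Slc16 and reference genes, and the 5 genes with the largest spread and the smallest change at 100 CPM or more. Ranges of further list members were chosen after their values were seen. The lists, isoform pairs and rules were chosen with earlier results of these data known. C5, Klkb1 and Fcn3 were not found by symbol. Alternatives were no block, RLE, library size alone, other filters, DESeq2 1.42.0, limma 3.58.1 with voom, log2(RPKM + 0.1) and log2(RPKM + 1), removal of each library's dependence on gene length (loess, span 0.3), and each mouse left out. A test without pairing for the number of genes at equal depth was added after seeing the data. Values of single genes that the rule names are in part not reported here. KO libraries were read only for the reads on Slc16a13. Promoter sequences are those of RefSeq in GRCm38.p6.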

Additional observations from a re-analysis of the deposited data

How the results depend on the processing

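Counts of called genes moved little with most settings. Without the replicate block, that is, without pairing by mouse, 6321 genes were higher in liver and 6332 in muscle, 3706 and 3388 of them over 2-fold, and the differences in the 3 shares and counts were the same by construction. The unpaired permutation p was 6e-05 for the top 10 and mitochondrial shares, but 0.12 for the number of genes with 10 reads or more (liver minus muscle -117.8), whose call was thus lost. With 100 reads or more this difference turned to 247.9. Over 2-fold calls fell to 2344 for liver and 2046 for muscle where 10 counts were asked of every library, which left 10665 genes and removed those absent from one tissue, and to 2142 for muscle on log2(RPKM + 1), where the pseudocount shrinks low genes. Without any filter, 23654 genes were tested. Leaving out each mouse gave 6283 to 6338, 6287 to 6356, 3692 to 3730 and 3384 to 3443 calls.

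Of 748 genes followed, 681 kept call and direction in every setting. In 13 the direction turned where gene length was removed: Esr1 (0.24), Nr3c1 (0.34), Polr2a (0.50), Prkaa1 (0.05), Psma4 (-0.04), Psmb1 (-0.03), Psmc4 (-0.20), Psmd13 (-0.18), Rpl34 (-0.01), Rpl6 (-0.10), Rps3 (-0.23), Rps4x (-0.06) and Sdhd (-0.03), all within 0.5 of 0, and the cause was not tested. The fold of 86 genes moved by over 1.5 times without a single mouse, 29 of them without mouse 516 and 30 without mouse 616.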

Other observations

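Among 17 clock genes, 10 were higher in muscle and 4 in liver, against 45.6 and 45.5% of all genes, and 3 were not called. Bhlhe41 had 0.26 to 1.93 TPM in liver and 8.57 to 19.6 TPM in muscle (log2 -3.76, SE 0.22), the activator Arntl 4.62 to 15.2 and 15.9 to 36.8 TPM (log2 -1.52, SE 0.08) and Per3 1.16 to 8.28 and 5.33 to 13.2 TPM (log2 -1.46, SE 0.15). Hlf (log2 3.30, SE 0.06), Per2 (1.55, SE 0.12), Clock (0.72, SE 0.05) and Dbp (0.54, SE 0.17) were higher in liver, and the call of Dbp was lost without the replicate block and where gene length was removed. Dbp ranged from 7.8 to 89.5 TPM between livers and from 8.31 to 67.1 TPM between muscles. The hour at which each mouse was killed was not used here.

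Receptors for hormones and plasma proteins had 13 of 20 genes higher in liver and 7 in muscle, against 45.5 and 45.6% of all genes. The glucagon receptor Gcgr had 215 to 270 TPM in liver and at most 0.159 TPM in muscle (log2 12.48, SE 0.19), and the asialoglycoprotein receptor subunit Asgr1 797 to 951 TPM in liver and 2 reads in muscle. The insulin receptor Insr had 26.6 to 32.8 TPM in liver and 21.8 to 29.9 TPM in muscle (log2 0.34, SE 0.04, but 1.26 where gene length was removed). Igf1r (log2 -3.55, SE 0.13), Thra (-1.84, SE 0.05) and Adipor1 (-1.38, SE 0.05) were higher in muscle. Esr1 (-0.36) and Nr3c1 (-0.27) were called higher in muscle too, but turned to 0.24 and 0.34 where gene length was removed.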
